A study of Mus musculus with 12 samples.

Results

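Sterol and fatty acid synthesis was followed in the mouse uterus through 30 genes known as targets of sterol regulatory element binding proteins (SREBPs), out of 24964 genes in the count table. They were listed by symbol, by a rule that uses no measured value, though the list was drawn up with earlier results of these data known. All 30 had a row and all 30 were among the 15561 genes that passed the filter on low counts. They were grouped by role into 18 genes of sterol synthesis, 4 of sterol regulation and transport, and 8 of fatty acid synthesis. The mevalonate pathway builds cholesterol from acetyl-CoA, and a parallel set of enzymes builds, elongates and desaturates fatty acids. Both are controlled by SREBPs, transcription factors held in the endoplasmic reticulum with the escort protein SCAP while sterols are plentiful. INSIG proteins keep the complex in place, and when sterol falls the SREBP moves to the Golgi, is cut and enters the nucleus. Growing smooth muscle and decidua of the pregnant uterus need such lipids for membranes, and cholesterol is the precursor from which steroid-making tissues form progesterone.

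RNA was sequenced from mouse uterine tissue at 13.5 dpc (days post coitum). The PGR-A OE group carried Myh11Cre and 1 LSLPGRA allele (Myh11Cre; LSLPGRA/+), the PGR-B OE group carried Myh11Cre and 1 LSLPGRB allele (Myh11Cre; LSLPGRB/+), and the control group carried Myh11Cre alone, so all groups share the Cre. PGR-A and PGR-B are the short and the long isoform of the progesterone receptor. The Myh11 promoter drives Cre in smooth muscle, of vessels as well as of the myometrium, while the RNA comes from the whole tissue piece. Each group has 4 libraries, numbered 1 to 4, and values in a list are in that order. The labels do not say whether libraries of a group come from separate animals, give no maternal age and name no batch. The p-values thus set a group difference against the spread between these libraries, which may not be that between animals. In a bulk sample, fewer cells of a type and less RNA per cell cannot be told apart.

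The comparisons ask whether either isoform, overexpressed in smooth muscle at mid-pregnancy, goes with another level of this program, and whether the isoforms differ. The quasi-likelihood test of edgeR was run on the counts of all 12 libraries, and a gene was called at a Benjamini-Hochberg adjusted p under 0.05 over all genes tested. Levels are given in CPM, a gene's counts per 1000000 counts of the library, with library totals scaled by TMM, an edgeR factor for library composition. Changes are on the log2 scale.

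A sequence known for SREBP binding is the sterol regulatory element (SRE), and SREBPs act beside the factors NF-Y, which binds CCAAT boxes, and Sp1, which binds GC boxes. Promoters from RefSeq (build GRCm38.p6) were matched by symbol for 23 of the 30 genes, with Fdps, Fdft1, Sqle, Stard4, Scd1, Scd2 and Fads1 unmatched. In the 250 bases before the start, both strands were searched. A member counted if any of its promoter entries held the motif. The share of all promoters counts each of the 32851 entries, from 27025 symbols, on its own. Members with several entries, such as Srebf1 and Dhcr7, thus had more chances of a match than a single entry. The SRE core TCACNCCA was found in 3 of the 23, against 3.67% of 32851 promoters. These 3 sites are shown because they are the SRE matches among the members, each as 30 bases on the gene's strand with the core in capitals.
Hmgcs1, chr13:119690203-119690232, plus strand: acgtcaccgtcTCACCCCActtcccaggtc
Msmo1, chr8:64733737-64733766, minus strand: tctcactattcTCACTCCAtccgcgcagcc
Srebf2, chr15:82147096-82147125, plus strand: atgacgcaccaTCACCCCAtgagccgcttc
The site of Hmgcs1 continues as TCACNCCAC, a longer form that contains the core and stands in 1.05% of promoters.

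The sites of Hmgcs1 and Srebf2 lie upstream of those genes' models in the GRCm38 annotation, and that of Msmo1 lies inside the gene model of Msmo1. CCAAT was present in a promoter of 18 of the 23 genes, which is 78.3%, against 33.8% of all promoter entries. The GC box GGGCGG was present in 19 of the 23, or 82.6%, against 32.7%. The E-box CACGTG was in 4 of the 23 against 6.02% of all promoters, and AGAACA, an arm of the element bound by the progesterone receptor, was in 4 of the 23, or 17.4%, against 16.1%. No searched motif contains another apart from the longer SRE form. These are matches of letters, not measured binding.

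Full 250-base windows are shown for Hmgcs1, an early enzyme of the pathway that has an SRE match, and for Sc5d and Ebp, late sterol enzymes whose levels are described further on. Capitals mark the SRE core and the CCAAT boxes, which read ATTGG where the box is on the opposite strand.
Hmgcs1, chr13:119690101-119690350, plus strand: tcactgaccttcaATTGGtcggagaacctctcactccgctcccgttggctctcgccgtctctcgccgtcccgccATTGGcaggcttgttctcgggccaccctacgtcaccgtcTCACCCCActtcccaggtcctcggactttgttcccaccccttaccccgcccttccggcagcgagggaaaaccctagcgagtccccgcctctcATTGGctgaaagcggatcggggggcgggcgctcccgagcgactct
Sc5d, chr9:42264301-42264550, minus strand: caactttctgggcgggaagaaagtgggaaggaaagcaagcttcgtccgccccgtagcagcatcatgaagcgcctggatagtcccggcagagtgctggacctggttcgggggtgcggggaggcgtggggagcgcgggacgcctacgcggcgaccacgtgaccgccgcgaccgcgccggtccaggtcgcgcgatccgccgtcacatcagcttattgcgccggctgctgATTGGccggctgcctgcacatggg
Ebp, chrX:8193513-8193762, minus strand: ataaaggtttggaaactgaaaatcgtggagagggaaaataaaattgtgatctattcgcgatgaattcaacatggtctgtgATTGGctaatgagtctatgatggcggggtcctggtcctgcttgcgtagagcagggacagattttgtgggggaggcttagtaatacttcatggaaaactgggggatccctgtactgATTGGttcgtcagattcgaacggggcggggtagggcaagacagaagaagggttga
The Hmgcs1 window holds 4 marked sites, the Ebp window 2 and the Sc5d window 1, and none of the windows overlaps a gene model.

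Library totals lay between 31872534 and 33078483 counts, so depth was alike across groups, and the lowest count of any member in a library was 130. Pgr, the receptor gene itself, averaged 199.7 ± 38.5 CPM in PGR-A OE and 223 ± 26.5 CPM in PGR-B OE, against 121 ± 16.5 CPM in control libraries (SD, n = 4 each). It rose by a log2 of 0.72 (SE 0.14, edgeR adjusted p = 0.0416) in PGR-A OE and by 0.88 (SE 0.14, edgeR adjusted p = 0.0196) in PGR-B OE, both relative to control. The exact two-sided permutation p was 0.0286 for each, the smallest that 4 against 4 libraries allow. A count per gene does not tell the isoforms apart, and leaving out 1 library gave edgeR adjusted p-values of 0.0455 to 0.127 in PGR-A OE and 0.00435 to 0.0784 in PGR-B OE. Smooth muscle markers summed to 18051 to 24865 CPM in PGR-A OE, 13112 to 17398 CPM in PGR-B OE and 13473 to 17588 CPM in control libraries, so the labelled muscle was present in every library.

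Of the 12 libraries, 2 stood apart in a way that touches these genes. Prl8a2, a prolactin of decidual cells, stood at only 5.02 CPM in replicate 4 of PGR-A OE and at 5054 CPM in replicate 4 of control, with 174 to 1278 CPM in the others. Summed decidual markers were 147 CPM in PGR-A OE replicate 4 and 5243 CPM in control replicate 4. Log2 changes of sterol synthesis genes in the comparisons with control are therefore also given with control replicate 4 left out. Values without PGR-A OE replicate 4 are given for some genes only, and the others may also depend on that library.

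No member passed the threshold in any comparison. In PGR-A OE relative to control, 0 of 30 members were called, where 0.655% of all genes tested were. The count was also 0 of 30 in PGR-B OE relative to control, where 0.308% of all genes were called, and 0 of 30 in PGR-B OE relative to PGR-A OE, where 0.116% were. At an unadjusted edgeR p under 0.05, 6 of 30 members stood out in PGR-A OE relative to control, where 15.4% of all genes did. The same count was 1 of 30 in PGR-B OE relative to control (9.28% of all genes) and 3 of 30 in PGR-B OE relative to PGR-A OE (8.04% of all genes). The 95% intervals of the members' log2 changes ran from -0.75 to 0.77 in PGR-A OE relative to control, from -0.90 to 0.45 in PGR-B OE relative to control and from -0.71 to 0.59 in PGR-B OE relative to PGR-A OE. No interval of the 30 genes thus reached 1 or -1, while smaller changes were not excluded by these libraries. DESeq2 called 1 member in PGR-A OE relative to control, Acaca (adjusted p = 0.0377), where it called 3.94% of the 14579 genes it gave an adjusted p, and limma voom called 0 in each comparison.

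**Figure D1:**
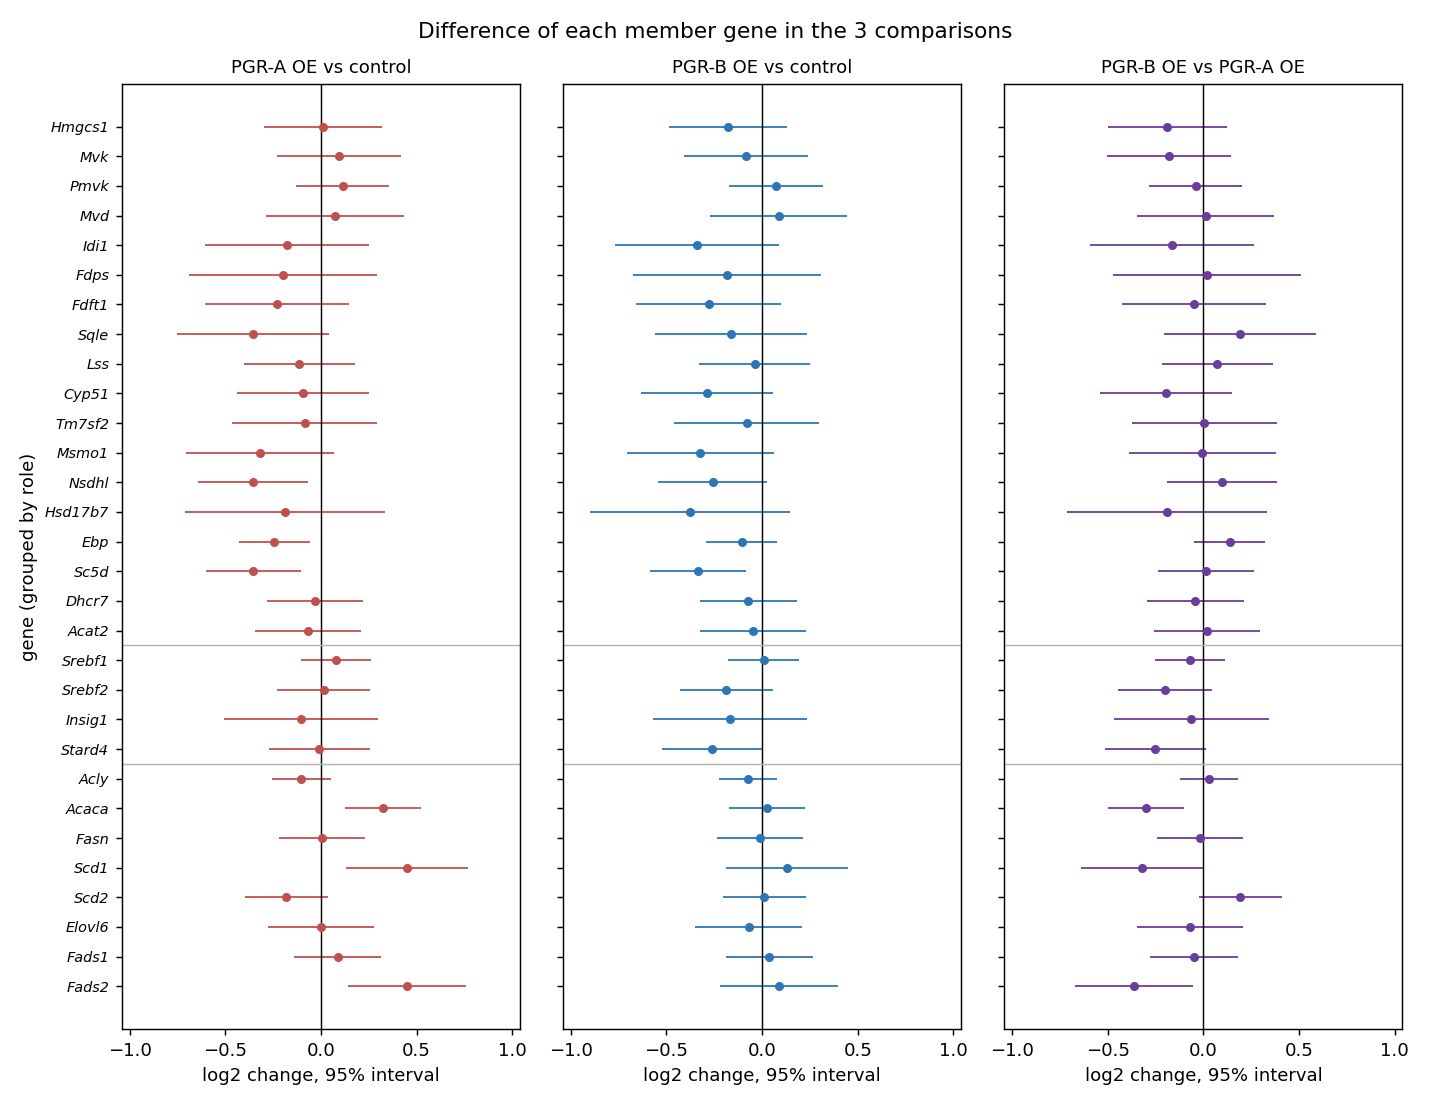
Log2 change (horizontal axis) of each of the 30 genes (vertical axis, by role) with its 95% interval from edgeR, for PGR-A OE relative to control, PGR-B OE relative to control and PGR-B OE relative to PGR-A OE. Most sterol synthesis genes lie left of 0 in both comparisons with control, and Acaca, Scd1 and Fads2 lie right of 0 in PGR-A OE relative to control with intervals that leave out 0.

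Levels per gene length (RPKM, from the lengths in the table) show how abundant each mRNA was in control uterus. Scd2, a stearoyl-CoA desaturase that makes monounsaturated fatty acids, stood highest at 63.0 ± 3.33 RPKM (SD, n = 4), and its lowest library lay above the highest of the gene next in order. Acly, which makes cytosolic acetyl-CoA from citrate, followed at 42.9 ± 1.598 RPKM, and Fdps, the farnesyl diphosphate synthase, at 42.1 ± 14.0 RPKM, with 1 library at 63.0 RPKM, inside the range of Scd2. Next came Sqle, squalene epoxidase, at 29.1 ± 5.98 RPKM. Acly did not stand clear of Fdps, nor Fdps of Sqle, beyond the ranges of the control libraries.

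Fasn, the fatty acid synthase, was at 14.4 ± 0.822 RPKM and stood clear of the next gene, Sc5d, at 12.4 ± 0.709 RPKM. The lowest levels belonged to Idi1, isopentenyl diphosphate isomerase, at 2.95 ± 0.810 RPKM, to Acaca, acetyl-CoA carboxylase, at 1.92 ± 0.125 RPKM, and to Hsd17b7, a keto reductase of sterol synthesis, at 1.89 ± 0.727 RPKM. Only Scd2, Fasn and Idi1 had a lowest control library above the highest of the gene next below in the order, so the other neighbours were not separated by their spread.

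**Figure D2:**
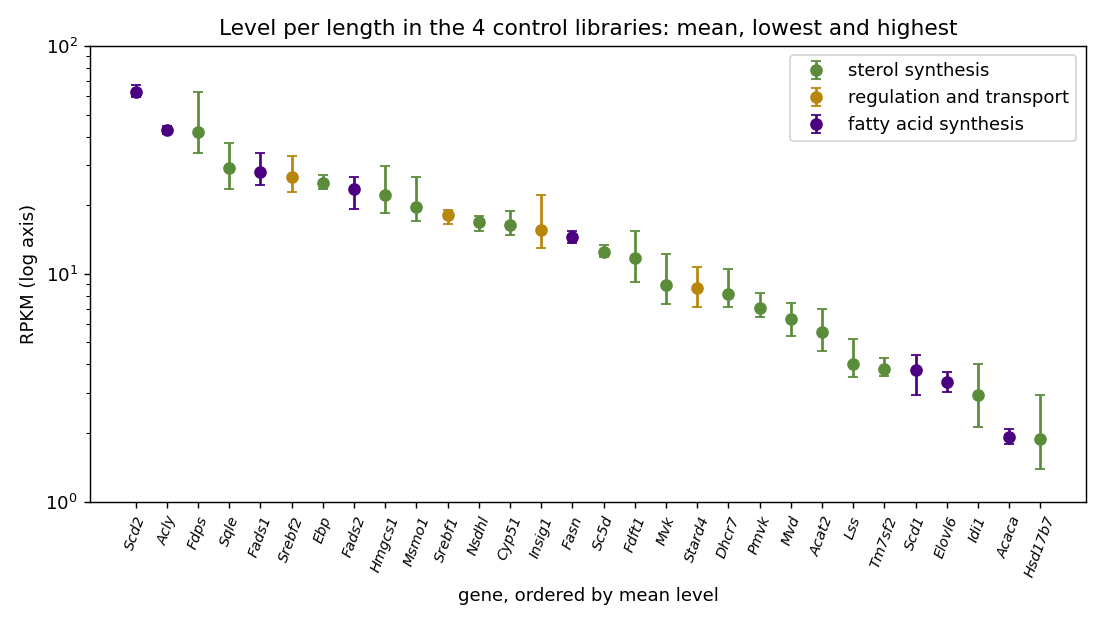
Mean level per gene length (points, RPKM on a log axis) of each of the 30 genes in the 4 control libraries, with bars from the lowest to the highest library and colours for the role. Scd2 leads at 63.0 RPKM, and Acaca and Hsd17b7 end the order at 1.92 and 1.89 RPKM.

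The 18 genes of sterol synthesis sat slightly below control in both overexpression groups as counted over all libraries. In PGR-A OE relative to control, 14 of the 18 had a log2 change below 0, where 49.9% of all genes did, and their median was -0.15. For PGR-B OE relative to control, 16 of the 18 were below 0, where 51.2% of all genes were, with a median of -0.17. The median over all genes tested was 0.00 in PGR-A OE and -0.01 in PGR-B OE relative to control. These comparisons share the control libraries, and control replicate 4 was the highest of the 12 libraries in 12 of the 18 genes.

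Without control replicate 4, only 8 of the 18 were below 0 in PGR-A OE, with a median of 0.02, and 11 of the 18 in PGR-B OE, with a median of -0.02. With PGR-A OE replicate 4 also left out, 6 of the 18 were below 0 in PGR-A OE (median 0.10) and 11 in PGR-B OE (median -0.02). PGR-A OE replicate 4 was the lowest of the 12 libraries in 9 of the 18 genes and the lowest of its group in 15. Averaged over the 18 genes, the deviation from the gene means was -0.28 in PGR-A OE replicate 4 and 0.43 in control replicate 4 on the log2 scale, and lay between -0.13 and 0.16 in the other 10. The part of decidual content in this order of libraries was not tested. Fibroblast markers, with 4 of 6 genes above 0 in each comparison with control, summed to 27871 to 34683 CPM in PGR-A OE, 28143 to 35095 CPM in PGR-B OE and 24095 to 25025 CPM in control libraries, and their part was not tested.

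**Figure D3:**
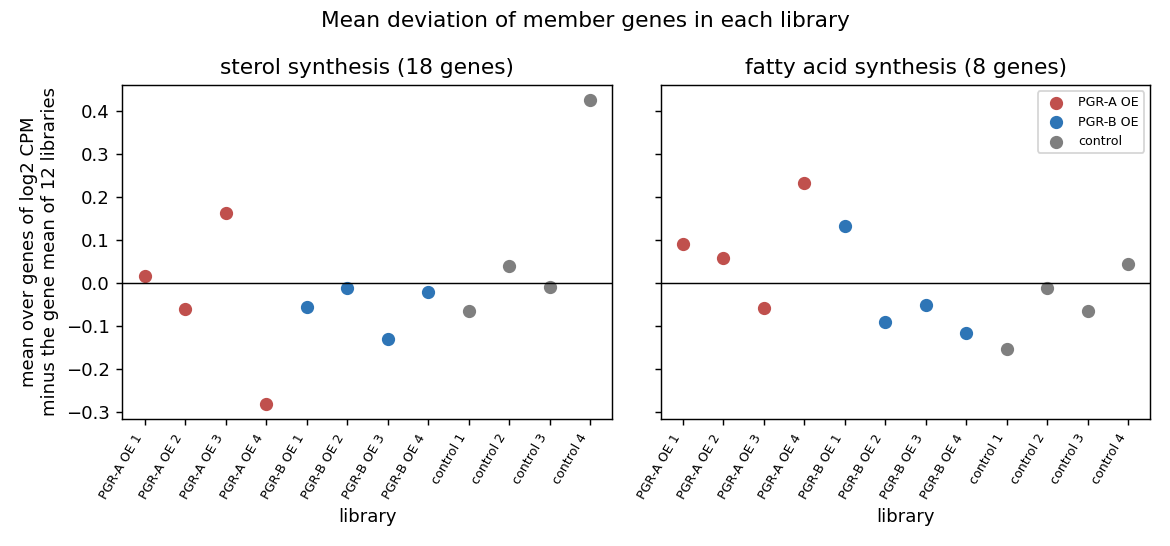
Mean deviation (vertical axis, log2 CPM minus the gene's mean over 12 libraries) in each library (horizontal axis), for the 18 sterol synthesis genes and the 8 fatty acid synthesis genes. Among sterol genes control replicate 4 stands highest at 0.43 and PGR-A OE replicate 4 lowest at -0.28.

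The early steps, which lead to farnesyl diphosphate, held no called gene. Hmgcs1 (HMG-CoA synthase, chr13:119690379-119708260, plus strand) had 75.4, 75.2, 94.6 and 75.1 CPM in PGR-A OE, 72.7, 77.2, 61.7 and 69.2 CPM in PGR-B OE and 67.4, 65.8, 78.9 and 106 CPM in control libraries. PGR-A OE replicate 3 and control replicate 4 were high, and the 3 groups overlapped. Its log2 change was 0.01 (SE 0.14) in PGR-A OE and -0.18 (SE 0.14) in PGR-B OE relative to control, with edgeR adjusted p = 0.981 in PGR-A OE and 0.767 in PGR-B OE. With control replicate 4 left out it was 0.18 in PGR-A OE and -0.01 in PGR-B OE. Idi1, which isomerises the isoprene unit, had 8.48, 6.46, 8.80 and 6.14 CPM in PGR-A OE, 7.26, 7.08, 5.25 and 7.07 CPM in PGR-B OE and 6.06, 8.81, 7.42 and 11.5 CPM in control libraries. All groups overlapped, with the highest level again in control replicate 4. Its log2 change was -0.18 (SE 0.20) in PGR-A OE and -0.34 (SE 0.20) in PGR-B OE relative to control (edgeR adjusted p = 0.706 in PGR-A OE and 0.635 in PGR-B OE), or 0.01 in PGR-A OE and -0.16 in PGR-B OE when that library was left out.

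Fdps, whose product feeds both sterols and protein prenylation, had 50.04, 56.1, 72.3 and 35.8 CPM in PGR-A OE, 44.8, 53.2, 59.2 and 59.6 CPM in PGR-B OE and 52.3, 49.6, 51.9 and 92.1 CPM in control libraries. Control replicate 4 stood far above the other 3 controls, and PGR-A OE replicate 4 was the lowest of the 12. The log2 change of Fdps was -0.20 in PGR-A OE and -0.18 in PGR-B OE relative to control, and with control replicate 4 left out 0.06 in PGR-A OE and 0.08 in PGR-B OE. With both replicate 4 libraries left out it was 0.21 in PGR-A OE, so the sign turned with these libraries. The kinases Mvk and Pmvk and the decarboxylase Mvd turn mevalonate into the isoprene unit. Mvk was at a log2 change of 0.10 in PGR-A OE and -0.09 in PGR-B OE relative to control, and with control replicate 4 left out 0.28 in PGR-A OE and 0.10 in PGR-B OE. Pmvk was at 0.11 in PGR-A OE and 0.07 in PGR-B OE relative to control, and with control replicate 4 left out 0.19 in PGR-A OE and 0.15 in PGR-B OE. Mvd was at 0.07 in PGR-A OE and 0.09 in PGR-B OE relative to control, and with control replicate 4 left out 0.16 in PGR-A OE and 0.17 in PGR-B OE. Without PGR-A OE replicate 4, Mvd was at 0.19 in PGR-A OE. Pmvk and Mvd thus lay above 0 in each of these fits, and Mvk in PGR-B OE lay on either side of it. With PGR-A OE replicate 3 left out, however, Mvd in PGR-A OE turned to -0.10 relative to control. Acat2, an acetyl-CoA acetyltransferase that supplies acetoacetyl-CoA, was at -0.07 in PGR-A OE and -0.05 in PGR-B OE relative to control, and with control replicate 4 left out 0.07 in PGR-A OE and 0.09 in PGR-B OE. Groups of these 4 genes overlapped in both comparisons.

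At the squalene steps no gene was called either. Sqle, which oxidises squalene, had 68.6, 56.4, 82.4 and 42.9 CPM in PGR-A OE, 65.9, 80.7, 68.96 and 70.1 CPM in PGR-B OE and 73.9, 78.03, 64.8 and 103 CPM in control libraries. PGR-A OE replicate 4 was the lowest and control replicate 4 the highest of the 12. The log2 change was -0.35 (SE 0.18) in PGR-A OE and -0.16 (SE 0.18) in PGR-B OE relative to control (edgeR adjusted p = 0.373 in PGR-A OE and 0.848 in PGR-B OE). Leaving out control replicate 4, it was -0.21 in PGR-A OE and -0.02 in PGR-B OE. Fdft1, squalene synthase, ranged over 26.9 to 44.4 CPM in PGR-A OE, 31.4 to 38.7 CPM in PGR-B OE and 33.9 to 56.7 CPM in control libraries. Its log2 change was -0.23 in PGR-A OE and -0.28 in PGR-B OE relative to control, and with control replicate 4 left out -0.07 in PGR-A OE and -0.12 in PGR-B OE. Lss, which closes the ring to lanosterol, ranged over 20.5 to 28.1 CPM in PGR-A OE, 21.96 to 26.3 CPM in PGR-B OE and 22.3 to 32.6 CPM in control libraries. Lss was at a log2 change of -0.11 in PGR-A OE and -0.04 in PGR-B OE relative to control, and with control replicate 4 left out 0.03 in PGR-A OE and 0.11 in PGR-B OE. Control replicate 4 thus set the sign of Lss in both comparisons.

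Among the steps from lanosterol to cholesterol, Sc5d stood lower in both overexpression groups in every library, though short of the threshold. Sc5d (sterol C5 desaturase, chr9:42251595-42264256, minus strand) had 21.1, 22.1, 25.4 and 18.8 CPM in PGR-A OE, 18.4, 26.01, 23.7 and 20.3 CPM in PGR-B OE and 26.7, 30.1, 26.7 and 28.1 CPM in control libraries. All 8 overexpression libraries lay below the lowest control, so neither group overlapped control. It averaged 21.9 ± 2.75 CPM in PGR-A OE, 22.1 ± 3.39 CPM in PGR-B OE and 27.9 ± 1.59 CPM in control (SD, n = 4 each). The log2 change was -0.35 (SE 0.12) in PGR-A OE and -0.34 (SE 0.12) in PGR-B OE relative to control, with edgeR adjusted p = 0.186 in PGR-A OE and 0.397 in PGR-B OE. Between the isoforms the difference was 0.02 (SE 0.12), with a 95% interval of -0.23 to 0.27. Without control replicate 4 the log2 change was -0.35 in PGR-A OE and -0.33 in PGR-B OE, and without PGR-A OE replicate 4 it was -0.29 in PGR-A OE, so it was near its full size in each case.

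Nsdhl and Ebp, X-linked genes of the same stretch, were lower in PGR-A OE without overlap. Nsdhl (sterol-4-alpha-carboxylate dehydrogenase, chrX:72918557-72958514, plus strand) had 32.9, 31.3, 31.99 and 20.6 CPM in PGR-A OE, 27.2, 34.8, 31.9 and 30.998 CPM in PGR-B OE and 34.2, 39.6, 37.1 and 38.5 CPM in control libraries. PGR-A OE replicate 4 was the lowest of all, and without it the log2 change relative to control was -0.22 (edgeR adjusted p = 0.308). With it the change was -0.35 (SE 0.13) (edgeR adjusted p = 0.233). The PGR-B OE change relative to control was -0.26 (SE 0.13), with edgeR adjusted p = 0.576, and 1 PGR-B OE library lay within the control range. Ebp (the sterol isomerase called emopamil binding protein, chrX:8185329-8193512, minus strand) had 38.9, 37.8, 37.2 and 33.5 CPM in PGR-A OE, 35.2, 43.8, 44.5 and 38.5 CPM in PGR-B OE and 47.1, 44.8, 41.5 and 41.1 CPM in control libraries. Every PGR-A OE library was below every control, while PGR-B OE overlapped both. The log2 change of Ebp was -0.24 (SE 0.086) in PGR-A OE and -0.11 (SE 0.086) in PGR-B OE relative to control, with edgeR adjusted p = 0.214 in PGR-A OE and 0.768 in PGR-B OE. Control replicate 4 moved these genes little: leaving it out gave -0.34 in PGR-A OE and -0.24 in PGR-B OE for Nsdhl, and -0.27 in PGR-A OE and -0.13 in PGR-B OE for Ebp.

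In all, 2 members were higher and 3 lower in PGR-A OE than in control with no overlap of libraries, where 10.6% of all genes did not overlap. The higher genes were Acaca and Fads2 and the lower ones Sc5d, Ebp and Nsdhl. In PGR-B OE, Sc5d and Msmo1 were lower than control without overlap, where 5.67% of all genes did not overlap. Msmo1, the sterol C4 methyl oxidase, had 30.6, 25.6, 37.4 and 21.03 CPM in PGR-A OE, 27.3, 30.3, 26.6 and 30.1 CPM in PGR-B OE and 31.1, 31.9, 31.4 and 48.4 CPM in control libraries. Control replicate 4 was far above the other controls, whose lowest value exceeded the highest PGR-B OE value by little, so the PGR-B OE and control groups stay apart without it. Its log2 change was -0.32 (SE 0.18) in PGR-A OE and -0.32 (SE 0.18) in PGR-B OE relative to control (edgeR adjusted p = 0.412 in PGR-A OE and 0.614 in PGR-B OE). It shrank to -0.14 in PGR-A OE and -0.14 in PGR-B OE with control replicate 4 left out, and to -0.01 in PGR-A OE with both replicate 4 libraries left out.

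Cyp51, the lanosterol demethylase, had 80.1, 75.9, 67.7 and 43.7 CPM in PGR-A OE, 58.1, 64.7, 50.4 and 60.2 CPM in PGR-B OE and 64.6, 71.3, 67.6 and 81.9 CPM in control libraries. In PGR-A OE its log2 change was -0.09 relative to control, was -0.02 without control replicate 4 and turned to 0.06 with PGR-A OE replicate 4, its lowest library, left out. In PGR-B OE its log2 change relative to control was -0.29 (SE 0.16) (edgeR adjusted p = 0.614), with 1 PGR-B OE library inside the control range, and -0.22 without control replicate 4. Tm7sf2, a sterol C14 reductase, ranged over 4.33 to 6.96 CPM in PGR-A OE, 4.19 to 6.34 CPM in PGR-B OE and 5.24 to 6.31 CPM in control libraries. Hsd17b7 ranged over 5.38 to 9.23 CPM in PGR-A OE, 5.71 to 8.05 CPM in PGR-B OE and 6.35 to 13.5 CPM in control libraries, with control replicate 4 alone above 9.23 CPM. Dhcr7, which makes cholesterol from 7-dehydrocholesterol, ranged over 20.3 to 24.001 CPM in PGR-A OE, 20.3 to 23.1 CPM in PGR-B OE and 20.1 to 29.6 CPM in control libraries, again with control replicate 4 highest. None of these groups was separated from control. Tm7sf2 was at a log2 change of -0.08 in PGR-A OE and -0.08 in PGR-B OE relative to control. With control replicate 4 left out it was -0.03 in PGR-A OE and -0.02 in PGR-B OE. Without PGR-A OE replicate 4 it was -0.24 in PGR-A OE. Hsd17b7 was at -0.19 in PGR-A OE and -0.38 in PGR-B OE relative to control, and with control replicate 4 left out 0.11 in PGR-A OE and -0.08 in PGR-B OE. Dhcr7 was at -0.03 in PGR-A OE and -0.07 in PGR-B OE relative to control, and with control replicate 4 left out 0.11 in PGR-A OE and 0.07 in PGR-B OE. The changes of Hsd17b7 in PGR-A OE and of Dhcr7 in both groups thus turned sign when that library was left out.

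**Figure D4:**
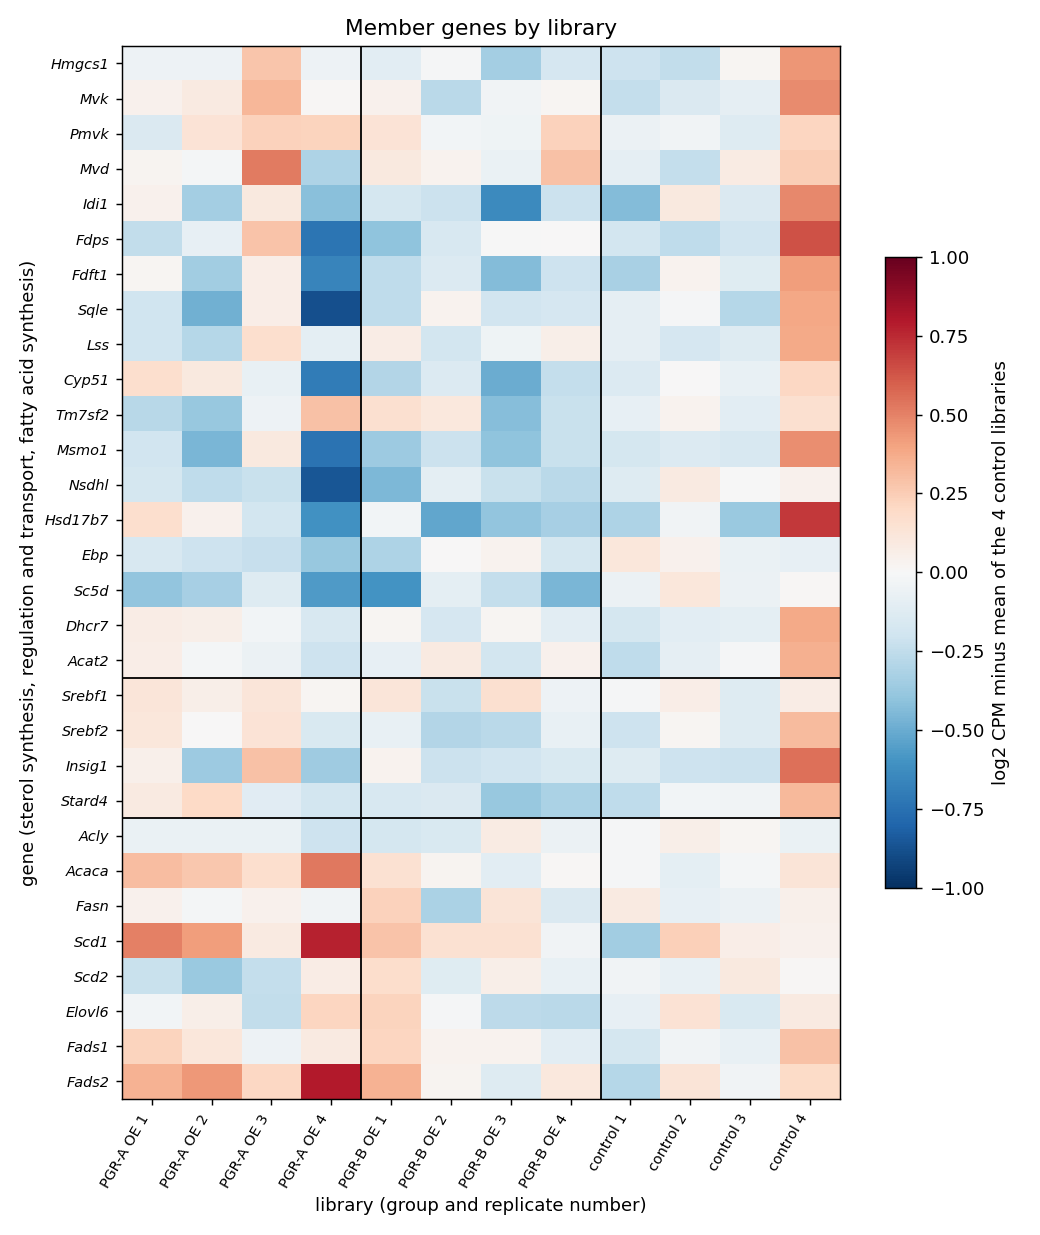
Log2 CPM minus the mean of the 4 control libraries (colour, blue below and red above 0) for each of the 30 genes (rows, by role) in each of the 12 libraries (columns). Sterol genes are reddest in control replicate 4 and bluest in PGR-A OE replicate 4, and Acaca, Scd1 and Fads2 are red in the PGR-A OE libraries.

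The regulators showed no called difference in mRNA level. Srebf1, which encodes the SREBP isoforms that favour fatty acid genes, had 88.8, 84.7, 88.5 and 82.6 CPM in PGR-A OE, 88.6, 70.01, 91.2 and 78.5 CPM in PGR-B OE and 80.8, 85.4, 74.5 and 85.9 CPM in control libraries. Srebf2, which encodes the isoform that favours sterol genes and holds an SRE core shown above, had 129.8, 121, 132 and 108 CPM in PGR-A OE, 114, 98.001, 99.9 and 114 CPM in PGR-B OE and 104, 122, 110.1 and 149.5 CPM in control libraries. Both overlapped in all groups. The log2 change of Srebf1 was 0.08 (SE 0.085) in PGR-A OE and 0.01 (SE 0.085) in PGR-B OE, and that of Srebf2 was 0.01 (SE 0.11) in PGR-A OE and -0.19 (SE 0.11) in PGR-B OE, all relative to control. Srebf2, with control replicate 4 left out, was at 0.13 in PGR-A OE and -0.07 in PGR-B OE. With all libraries the edgeR adjusted p-values of both genes lay between 0.653 and 0.990.

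Insig1, both a brake on SREBP release and an SREBP target, had 41.4, 31.1, 48.9 and 31.2 CPM in PGR-A OE, 40.9, 34.4, 34.9 and 35.9 CPM in PGR-B OE and 36.6, 34.6, 34.4 and 58.5 CPM in control libraries. Control replicate 4 stood well above the other 11. Its log2 change relative to control was -0.10 (SE 0.19) in PGR-A OE and -0.17 (SE 0.19) in PGR-B OE, with edgeR adjusted p = 0.827 in PGR-A OE and 0.846 in PGR-B OE. Leaving out control replicate 4, it was 0.12 in PGR-A OE and 0.05 in PGR-B OE, so the sign turned in both. Stard4, a carrier that moves cholesterol between membranes, had 49.3, 53.2, 42.8 and 40.8 CPM in PGR-A OE, 41.4, 41.996, 35.6 and 37.2 CPM in PGR-B OE and 38.8, 45.4, 45.1 and 58.04 CPM in control libraries. PGR-B OE values were low but overlapped both other groups. The log2 change in PGR-B OE was -0.26 (SE 0.12) relative to control and -0.25 (SE 0.12) relative to PGR-A OE, with edgeR adjusted p = 0.545 relative to control and 0.635 relative to PGR-A OE. The change relative to control with control replicate 4 left out was -0.14. Over the 4 genes of regulation and transport, 2 were below 0 in PGR-A OE and 3 in PGR-B OE relative to control, and all 4 were below 0 in PGR-B OE relative to PGR-A OE.

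The 8 genes of fatty acid synthesis held 3 with an unadjusted p under 0.05 in PGR-A OE relative to control, all higher, and 5 with a p over it, where 15.4% of all genes were under it. Their median log2 change was 0.05 in PGR-A OE and 0.02 in PGR-B OE relative to control. Acaca (acetyl-CoA carboxylase, the committed step of fatty acid synthesis, chr11:84129672-84401651, plus strand) had 21.4, 20.9, 19.4 and 24.998 CPM in PGR-A OE, 19.3, 17.6, 16.1 and 17.5 CPM in PGR-B OE and 17.2, 16.2, 17.05 and 18.9 CPM in control libraries. Every PGR-A OE library was above every control and above every PGR-B OE library, though the lowest PGR-A OE value was close to the highest PGR-B OE value. Acaca averaged 21.7 ± 2.37 CPM in PGR-A OE, 17.6 ± 1.29 CPM in PGR-B OE and 17.3 ± 1.13 CPM in control (SD, n = 4 each). The log2 change was 0.32 (SE 0.091) in PGR-A OE relative to control, with edgeR adjusted p = 0.136, and 0.02 (SE 0.091) in PGR-B OE relative to control. DESeq2 gave the same size with an adjusted p of 0.0377, the only call of a member by any tool. The Acaca transcript shares sequence with the pseudogene Gm5182, so its count carries that uncertainty. Without PGR-A OE replicate 4 the change in PGR-A OE was 0.25 (edgeR adjusted p = 0.250).

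Fads2 (delta-6 desaturase of polyunsaturated fatty acids, chr19:10062765-10101746, minus strand) had 44.9, 47.8, 40.8 and 61.4 CPM in PGR-A OE, 44.9, 36.1, 32.4 and 38.1 CPM in PGR-B OE and 29.1, 38.6, 34.5 and 40.3 CPM in control libraries. All PGR-A OE values were above all control values, and PGR-A OE replicate 4 was the highest. The log2 change was 0.45 (SE 0.14) in PGR-A OE and 0.09 (SE 0.14) in PGR-B OE relative to control (edgeR adjusted p = 0.169 in PGR-A OE and 0.899 in PGR-B OE), and 0.32 in PGR-A OE without its replicate 4. Scd1, the other stearoyl-CoA desaturase on the list (chr19:44394455-44407879, minus strand), had 25.5, 24.1, 19.2 and 30.8 CPM in PGR-A OE, 21.98, 20.04, 20.1 and 17.6 CPM in PGR-B OE and 14.2, 21.2, 18.9 and 18.6 CPM in control libraries. Most PGR-A OE libraries were above the controls, but replicate 3 lay within their range. The log2 change was 0.45 (SE 0.15) in PGR-A OE and 0.13 (SE 0.15) in PGR-B OE relative to control (edgeR adjusted p = 0.184 in PGR-A OE and 0.851 in PGR-B OE), and 0.33 in PGR-A OE without its replicate 4.

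**Figure D5:**
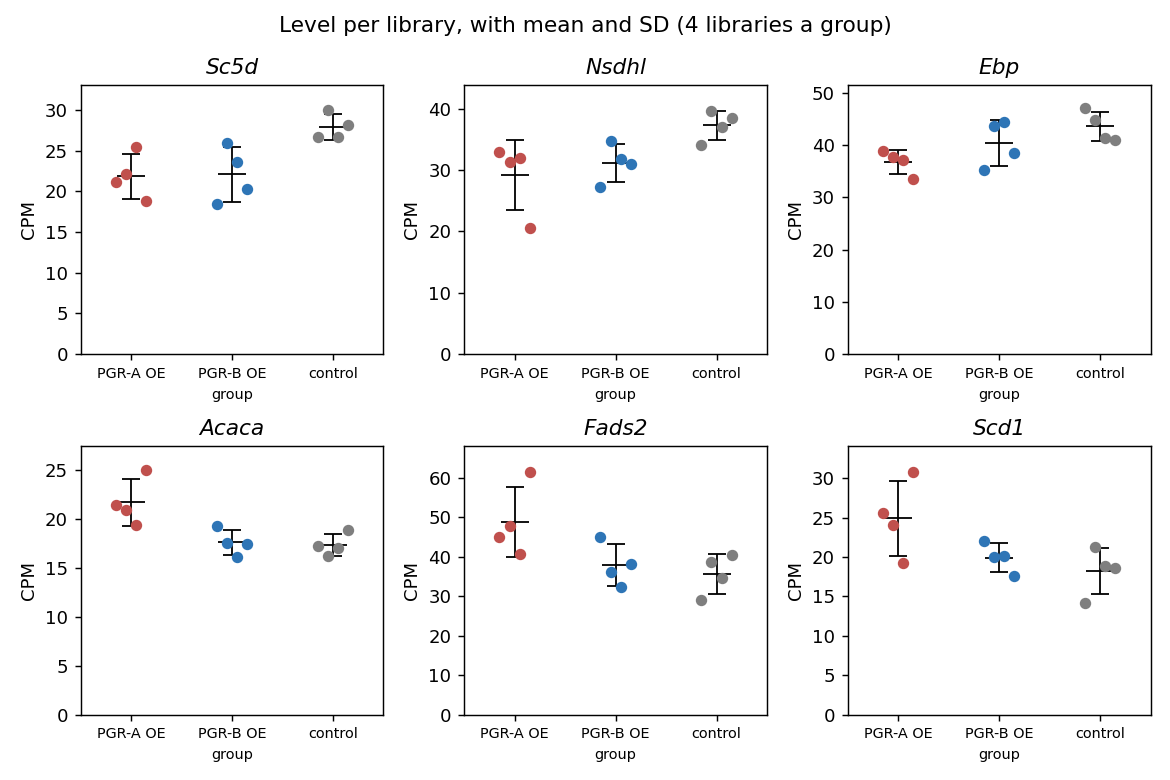
Level (CPM) of Sc5d, Nsdhl, Ebp, Acaca, Fads2 and Scd1 in each library (points) of PGR-A OE, PGR-B OE and control, with the mean and SD of 4 libraries. Acaca and Fads2 are above control in all 4 PGR-A OE libraries, and Sc5d, Nsdhl and Ebp are below control in all 4.

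Fat cells also express these 3 genes, and their markers were uneven across the PGR-A OE libraries. Adipoq, the adipocyte hormone adiponectin, had 0, 17, 0 and 13 counts in PGR-A OE, 0, 0, 2 and 0 in PGR-B OE and 0, 1, 0 and 0 in control libraries. Cfd, the adipocyte protease adipsin, had 1, 81, 0 and 66 counts in PGR-A OE, 0 in every PGR-B OE library and 0, 0, 3 and 0 in control libraries. Plin1, Retn and Cidec, also near 0, were likewise highest in replicates 2 and 4 of PGR-A OE. Other markers differed from these. Pck1 had 108, 152, 181 and 41.1 CPM in PGR-A OE, with replicate 4 the lowest of all libraries. Fabp4 had 10.5, 9.53, 3.60 and 3.99 CPM in PGR-A OE and was highest in control replicate 4, at 29.8 CPM. The 11 adipocyte markers summed to 76.5 to 205 CPM in PGR-A OE, 148 to 206 CPM in PGR-B OE and 144 to 175 CPM in control, a sum made mostly of Pck1, and none was at 0 in all libraries. Acaca and Fads2 were above every control in all 4 PGR-A OE libraries, and Scd1 in replicates 1, 2 and 4. The part of fat tissue in these levels was not tested. Smooth muscle markers summed higher in every PGR-A OE library than in any other library, and their part was not tested either.

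The remaining fatty acid genes had an unadjusted p over 0.05 in each comparison. Fasn, which builds palmitate, had 148, 141, 148 and 139.6 CPM in PGR-A OE, 168, 115, 157 and 129.8 CPM in PGR-B OE and 152, 135, 138 and 148 CPM in control libraries. Scd2, highly expressed in this tissue, had 294, 266, 290.1 and 361 CPM in PGR-A OE, 387, 315, 358 and 325 CPM in PGR-B OE and 334, 326, 368 and 345 CPM in control libraries. Elovl6, which elongates palmitate, had 19.5, 20.7, 16.8 and 23.1 CPM in PGR-A OE, 23.2, 19.8, 16.6 and 16.6 CPM in PGR-B OE and 18.8, 22.04, 17.96 and 21.2 CPM in control libraries. Groups overlapped for all 3, and the log2 changes relative to control were 0.01 (SE 0.10), -0.18 (SE 0.10) and 0.00 (SE 0.13) in PGR-A OE in that order of genes. In PGR-B OE relative to control they were -0.01 (SE 0.10), 0.01 (SE 0.10) and -0.07 (SE 0.13). Acly ranged over 165 to 181 CPM in PGR-A OE, 168 to 201 CPM in PGR-B OE and 181 to 198 CPM in control libraries, and Fads1, the delta-5 desaturase, over 92.8 to 112 CPM in PGR-A OE, 88.99 to 111 CPM in PGR-B OE and 84.7 to 118 CPM in control libraries.

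Set directly against each other, PGR-B OE and PGR-A OE had the members' largest log2 differences over all libraries in the 3 fatty acid genes described above, each lower in PGR-B OE. The log2 change in PGR-B OE relative to PGR-A OE was -0.30 (SE 0.091) for Acaca, -0.36 (SE 0.14) for Fads2 and -0.32 (SE 0.15) for Scd1. The edgeR adjusted p was 0.415 for Acaca, 0.556 for Fads2 and 0.619 for Scd1, so none passed. Without PGR-A OE replicate 4 these changes were -0.22 for Acaca, -0.23 for Fads2 and -0.20 for Scd1. Cyp51 at -0.35, Hsd17b7 at -0.32, Stard4 at -0.31, Scd2 at 0.29, Srebf2 at -0.26 and Idi1 at -0.25 then stood farther from 0, so the order rests on that library. Acaca was the only member without overlap, where 3.85% of all genes did not overlap. Of the 18 sterol synthesis genes 9 were below 0 and 9 above, with a median of -0.00, beside 0.00 over all genes tested. Without PGR-A OE replicate 4, 14 of the 18 were below 0, with a median of -0.09.

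Several members share sequence with other genes, which leaves their counts less certain. Transcripts of 8 members matched another gene's transcript at 95% identity or more over at least 150 bases: Acaca (pseudogene Gm5182, 99.2%), Acat2 (Acat3), Elovl6, Fdft1, Fdps, Idi1, Insig1 and Scd2 (with Scd1, 95.5%). A further overlap of exon bases with another gene model held for 10 members, which were Hmgcs1, Idi1, Fdps, Lss, Elovl6, Fdft1 with Ctsb, Cyp51 with Akap9, Tm7sf2 with Vps51, Srebf1 with Rai1 and Scd2 with a microRNA gene. Whether counting used strand or multi-mapped reads is not given in the sources used here. How far reads of such pairs affect the counts was not measured.

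Genes beside the members were read from lists of 82 further genes, of which 74 were tested, and 0 were called in any comparison. Counts at an unadjusted p under 0.05 in these lists stand beside 15.4% of all genes in PGR-A OE and 9.28% in PGR-B OE relative to control, and with so few genes a list nothing is read from them. Of 7 other genes of sterol synthesis, 4 had an unadjusted p under 0.05 in PGR-A OE relative to control, all lower, and 1 in PGR-B OE, also lower. Rdh11, Erg28 and Ggps1 were among them in PGR-A OE, and Ggps1 was the gene in PGR-B OE. Rdh11, a retinol dehydrogenase also known as an SREBP target, averaged 78.1 ± 10.5 CPM in PGR-A OE and 119.9 ± 26.6 CPM in control (SD, n = 4 each), a log2 change of -0.62 (SE 0.17) with edgeR adjusted p = 0.120. Erg28, a scaffold of the C4 demethylation complex, was at -0.28 (SE 0.097) in PGR-A OE and -0.20 (SE 0.097) in PGR-B OE relative to control (edgeR adjusted p = 0.214 in PGR-A OE and 0.558 in PGR-B OE). Ggps1, which makes geranylgeranyl diphosphate, was at -0.20 (SE 0.072) in PGR-B OE relative to control (edgeR adjusted p = 0.423).

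Among 10 tested genes of SREBP control, 3 had an unadjusted p under 0.05 in PGR-A OE and 2 in PGR-B OE relative to control (Nr1h3 higher and Mbtps2 lower in both, and Mbtps1 higher in PGR-A OE). Mbtps2 and Nr1h3 had the lowest p-values in both comparisons with control. Mbtps2, the site-2 protease that frees SREBP, averaged 17.98 ± 0.954 CPM in PGR-A OE, 19.6 ± 1.43 CPM in PGR-B OE and 22.4 ± 1.47 CPM in control (SD, n = 4 each). Its log2 change was -0.31 (SE 0.078) in PGR-A OE and -0.19 (SE 0.078) in PGR-B OE relative to control (edgeR adjusted p = 0.101 in PGR-A OE and 0.476 in PGR-B OE). Nr1h3, the oxysterol receptor LXR alpha, was at 0.38 (SE 0.11) in PGR-A OE and 0.32 (SE 0.11) in PGR-B OE relative to control (edgeR adjusted p = 0.144 in PGR-A OE and 0.410 in PGR-B OE).

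Of 12 tested genes of sterol uptake and storage, 1 had an unadjusted p under 0.05 in PGR-A OE (Soat2, higher) and 2 in PGR-B OE (Scarb1 higher, Vldlr lower) relative to control. Scarb1, the high density lipoprotein receptor, was at a log2 of 0.29 (SE 0.08) and Vldlr, a lipoprotein receptor, at -0.36 (SE 0.11) in PGR-B OE relative to control (edgeR adjusted p = 0.243 for Scarb1 and 0.272 for Vldlr). In PGR-A OE relative to control, Soat2, a cholesterol esterifying enzyme, was at 0.85 (SE 0.31), from a level under 1 CPM, and Vldlr at -0.22 (SE 0.11) (edgeR adjusted p = 0.232 for Soat2 and 0.336 for Vldlr). Of 9 tested genes of efflux and oxysterol metabolism, 0 had such a p in PGR-A OE and 1 in PGR-B OE. That gene, Cyp27a1, the sterol 27-hydroxylase, was at 0.25 (SE 0.13) in PGR-A OE and 0.41 (SE 0.13) in PGR-B OE relative to control (edgeR adjusted p = 0.359 in PGR-A OE and 0.307 in PGR-B OE). Lpcat3, a phospholipid remodelling enzyme under LXR control, was at -0.29 (SE 0.13) in PGR-A OE and -0.27 (SE 0.13) in PGR-B OE relative to control (edgeR adjusted p = 0.329 in PGR-A OE and 0.570 in PGR-B OE).

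Between the isoforms, the further lists gave small differences. The log2 change in PGR-B OE relative to PGR-A OE was 0.32 (SE 0.17) for Rdh11 and 0.12 (SE 0.078) for Mbtps2. It was -0.12 (SE 0.075) for Nr1h2, which encodes LXR beta, -0.18 (SE 0.11) for the lysosomal lipase gene Lipa and 0.14 (SE 0.08) for Scarb1. Abca1, the cholesterol exporter, was at 0.26 (SE 0.10) and Cyp7b1, an oxysterol hydroxylase, at -0.25 (SE 0.17). The edgeR adjusted p of these 7 genes was 0.566 or higher.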

How the data were processed

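Paired-end RNA-seq libraries (75 bp reads, Illumina TruSeq, per the labels' protocols) were made from uterine tissue of 3 groups of 4. The authors deposited 1 table of whole-number counts per gene with a gene length column, and the lengths are in bases, per the file headers. STAR 2.7.0f, Bowtie2 2.2.5, Subread 1.6.4 with featureCounts, and DESeq2 are named beside mm10 and GRCm38, per the submitters' processing notes. Not given in the sources used here: their roles, the annotation, strand use and the treatment of multi-mapped reads.

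Here R 4.3.3 with edgeR 4.0.16 was used (filterByExpr, TMM, robust glmQLFit, glmQLFTest, Benjamini-Hochberg over 15561 genes). Alternatives were DESeq2 1.42.0, limma 3.58.1 (voom), size factors by median ratio, no filter, a fit on the 8 libraries compared, a replicate block and fits without each library. Heat map values use a prior count of 2. RPKM used the deposited lengths. Near-identical transcripts were searched with blastn 2.17.0. The tests were checked on simulated data. No libraries were duplicates among 18 pairs compared within groups.

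The members and lists were chosen with earlier results of these data known. Genes described in full were the 4 members with the lowest p in a comparison, 14 fixed genes and the 2 lowest p-values of each further list; other members, Nsdhl, Ebp, Msmo1 and Fdps among them, were named after their values were seen. Some genes of the further lists are not reported here.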

Additional observations from a re-analysis of the deposited data

Results flagged for a closer look

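Of 93 groups of 4 libraries examined, 9 held a library that lay far from the other 3 by Dixon's test at the 95% level, and chance flags about 1 group in 20. Control replicate 4 was the distant library in 5 of them, each time high. Fdps was at 92.1 CPM there, against 49.6 to 52.3 CPM in the other controls. Msmo1 was at 48.4 CPM, against 31.1 to 31.9 CPM. Insig1 was at 58.5 CPM, against 34.4 to 36.6 CPM. Lss was at 32.6 CPM, against 22.3 to 23.5 CPM, and Dhcr7 at 29.6 CPM, against 20.1 to 21.3 CPM.

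PGR-A OE replicate 4 was low for Nsdhl at 20.6 CPM, against 31.3 to 32.9 CPM in its group, and for Acly at 164.9 CPM, against 181 to 181.3 CPM. PGR-A OE replicate 3 was high for Hmgcs1 at 94.6 CPM, against 75.1 to 75.4 CPM. PGR-B OE replicate 3 was low for Idi1 at 5.25 CPM, against 7.07 to 7.26 CPM.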

How the results depend on the processing

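The count of called members was 0 in each comparison under every alternative run except DESeq2, which called 1 (Acaca, PGR-A OE relative to control), where it also called more genes overall (575, against 102 by edgeR). The count of sterol synthesis genes below 0 depended on single libraries. In PGR-A OE relative to control it ranged from 8 (without control replicate 4) to 16 over fits that left out 1 library, and was 6 without both replicate 4 libraries. In PGR-B OE relative to PGR-A OE it ranged from 6 to 14. In PGR-B OE relative to control it ranged from 11 to 16. Members at an unadjusted p under 0.05 ranged from 5 to 8, from 1 to 4 and from 1 to 5 over the same fits in PGR-A OE relative to control, PGR-B OE relative to control and PGR-B OE relative to PGR-A OE. Of 90 log2 changes of members, none called by edgeR, 44 changed sign under at least 1 of 19 alternatives, the largest of them 0.23 in size. Promoter windows of 300 bases gave 3, 19, 19, 4 and 5 members with the SRE core, CCAAT, the GC box, the E-box and AGAACA.

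The adjusted p of Pgr in PGR-A OE was over 0.05 with only the 8 libraries compared (0.0902), without both replicate 4 libraries (0.0906) and without any of several single libraries (controls 1 to 4, PGR-A OE 2 to 4, PGR-B OE 2 and 3), with a range of 0.0455 to 0.127. In PGR-B OE the range was 0.00435 to 0.0784, over 0.05 without controls 2, 3 or 4 or PGR-B OE 1, 2 or 3. The replicate block gave Pgr adjusted p-values of 0.122 in PGR-A OE and 0.0975 in PGR-B OE, and 0 members called. Deviations of same-numbered libraries of different groups correlated between -0.26 and 0.19, with 1 of 12 pairs over 0.1. Among pairs with unlike numbers, 12 of 36 were over 0.1. Such correlations cannot settle whether the replicate numbers pair the libraries. The cause of these shifts was not tested. With 4 libraries a group, changes inside the intervals given were not excluded.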

Other observations

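Of 28 tested genes of other fatty acid metabolism, 5 had an unadjusted edgeR p under 0.05 in PGR-A OE relative to control and 4 in PGR-B OE relative to control, all lower, where 15.4% of all genes were under it in PGR-A OE and 9.28% in PGR-B OE. These shares count both directions. Of the 15561 genes tested, 1224 in PGR-A OE and 714 in PGR-B OE were under it and lower than control. With only 28 genes on the list nothing is read from its counts, and 0 of the 28 were called. The genes of the list with such a p were Acsl6, Elovl2, Elovl1, Gpam and Acsl4 in PGR-A OE and Acsl6, Elovl2, Elovl1 and Tecr in PGR-B OE. Acsl4, which activates arachidonic acid, averaged 80.99 ± 14.3 CPM in PGR-A OE and 119.6 ± 13.7 CPM in control (SD, n = 4 each), a log2 change of -0.56 (SE 0.16) with edgeR adjusted p = 0.141. In PGR-B OE relative to PGR-A OE it was at 0.46 (SE 0.16) (edgeR adjusted p = 0.487). Acsl6, another acyl-CoA synthetase, averaged 2.08 ± 0.225 CPM in PGR-A OE and 4.37 ± 1.93 CPM in control, a log2 change of -1.07 (SE 0.35) (edgeR adjusted p = 0.189). Elovl2, an elongase of polyunsaturated fatty acids, averaged 57.7 ± 22.1 CPM in PGR-B OE and 101 ± 22.6 CPM in control, a log2 change of -0.80 (SE 0.31) (edgeR adjusted p = 0.455). Of 9 genes of glycerolipid assembly, Agpat2, which makes phosphatidic acid, averaged 25.05 ± 2.76 CPM in PGR-A OE, 32.6 ± 8.59 CPM in PGR-B OE and 42.8 ± 19.3 CPM in control, with edgeR adjusted p = 0.206 in PGR-A OE and 0.706 in PGR-B OE. Gpam, which starts glycerolipid synthesis and stands on both lists, was at -0.24 (SE 0.11) in PGR-A OE relative to control (edgeR adjusted p = 0.311). Elovl1, an elongase of saturated fatty acids, was at -0.20 (SE 0.083) and Dgat2, which makes triglyceride, at 0.23 (SE 0.15) in PGR-B OE relative to control (edgeR adjusted p = 0.486 for Elovl1 and 0.707 for Dgat2). In PGR-B OE relative to PGR-A OE, Mid1ip1, a partner of acetyl-CoA carboxylase, was at 0.55 (SE 0.28), the lipin gene Lpin3 at 0.43 (SE 0.17) and Agpat2 at 0.38 (SE 0.27), each with an edgeR adjusted p of 0.568 or higher.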
